A study of Mus musculus with 8 samples.

Results

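The protein part of the cytosolic ribosome was read out in mouse blastocysts at embryonic day 4.5 of 3 Isca2 genotypes. The genes were taken by symbol from the annotation of the build. A gene counted if it was protein coding and its symbol began Rpl or Rps with a number, was one of Rplp0, Rplp1 and Rplp2, or was Rpsa, leaving out the kinases Rps6k and the pseudogenes marked -ps. This gave 86 of the 55471 genes in the files, 52 with large subunit symbols and 34 with small subunit symbols. Of these, 46 and 31 are the standard proteins of the subunits (called canonical here), and 8 are paralogues or retrocopies: Rpl10l, Rpl22l1, Rpl36al, Rpl39l, Rpl3l, Rpl7l1, Rps27l and Rps27rt. The remaining gene, Rps19bp1, encodes a protein that binds RPS19 and is not itself a ribosomal protein. A filter on low counts kept 85 of the 86, and Rpl3l, the paralogue of Rpl3 known from striated muscle, had 0 counts in all 8 libraries, which allows a level of up to 0.139 to 0.298 CPM (counts scaled to a common library size) depending on the library.

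The groups were wild type (WT, 3 libraries), Isca2 -/- knockout (KO, 2 libraries) and Isca2 G77S/G77S, homozygous for an amino acid substitution (G77S, 3 libraries). Isca2 encodes a mitochondrial protein needed to build iron-sulfur clusters. Per the labels' protocols, Isca2+/- females were superovulated with gonadotropins and mated to Isca2+/- males, and embryos were cultured. Not stated are the cross behind the G77S embryos, how many embryos went into a library, and their sex. Since no label ties a library to a litter of its own, the p-values describe only how these libraries spread, and part of that spread may be technical. RNA was amplified as full-length cDNA and cut by a transposase.

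The targeted gene went with the labels. Isca2 stood at 86.9, 173 and 154 CPM in WT, 4.84 and 6.20 CPM in KO, and 89.1, 105 and 133 CPM in G77S. The KO libraries lay below all others (log2 fold change against WT -4.64, SE 0.41, edgeR adjusted p = 0.003874). Library totals ran from 10323965 to 23842619 expected counts. From the deposited lengths, mean fragments spanned 182.4 to 186.1 bases in G77S and 243.7 to 292.1 bases elsewhere. Genotype G77S and a difference in library preparation therefore cannot be told apart in any result below. RNA from Y-linked genes was nearly absent in WT replicate 1 and G77S replicate 1. The 8 markers of cumulus and granulosa cells, which surround the egg, were at 0 in all libraries. Of the lineage markers, the 3 WT libraries held the trophectoderm factor Cdx2 at 4.96 to 13.8 CPM and the epiblast genes Nanog at 221 to 297, Zfp42 at 80.5 to 153 and Dppa5a at 7435 to 14150 CPM, with Sox2 and Esrrb at 0. Of the primitive endoderm factors they held Gata6 at 17.8 to 23.5 CPM, with Gata4, Sox17, Sox7 and Foxa2 at 0.

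Each ribosome is built from a large subunit, which joins amino acids, and a small subunit, which reads the mRNA, and each canonical protein apart from Rplp1 and Rplp2 is normally present once per particle. Most of these mRNAs begin with a run of pyrimidines (C and T in DNA), the TOP motif, through which mTOR signalling and LARP1 control their translation. Growing embryos make many ribosomes before implantation, and an oversupply of free ribosomal proteins is known to engage the Mdm2 and p53 pathway.

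RefSeq promoter entries of GRCm38.p6 (300 bases, most of them upstream of a transcript start) were matched for 66 of the 86 genes, with 78 entries. A run of at least 8 bases of C or T on the gene's strand was found between 50 bases before and 50 after the start in 75.6% of these entries, against 35.7% of all 32851 entries in the table. On the other strand such a run was in 23.1% and 38.1%. The letters CCGGAAG, searched on both strands of the 300 bases, were in 34.6% and 8.86%. The windows below are of the called genes Rps15a and Rpl39l and of 2 pairs of paralogue and partner whose balance is described further on. Each is written 5′ to 3′ on the gene's strand, with its longest C and T run in capitals.
Rps15a, chr7:118116143-118116172, minus strand: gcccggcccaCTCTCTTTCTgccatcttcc
Rpl39l, chr16:10170192-10170221, plus strand: acacccactgCCTCTCCCTagctcccaggc
Rpl22, chr4:152325679-152325708, plus strand: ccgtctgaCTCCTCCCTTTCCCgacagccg
Rpl22l1, chr3:28805499-28805528, plus strand: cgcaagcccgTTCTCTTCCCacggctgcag
Rps27, chr3:90213631-90213660, minus strand: tccgctttcgCTCCTTTCCggcggtgacga
Rps27l, chr9:66946054-66946083, plus strand: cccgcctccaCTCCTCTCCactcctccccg
The runs were 10, 9, 14, 10, 9 and 9 bases long in this order. They began at positions -15, -26, -39, 2, -2 and -22 from the start, with minus for bases before it. Those of Rps15a, Rpl39l, Rpl22 and Rps27l ended before the start. Paralogue and partner both carried a run in the Rpl22 and Rps27 pairs. A further entry of Rpl22 and one of Rps27l had a longest run of only 5 bases. The match is a description of the letters. The 52 tested genes with a run had a median log2 fold change of 0.46 in G77S against WT, and the 13 with an entry but no run one of 0.37. For KO against WT the medians were 0.25 and 0.21.

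Ribosomal protein genes took a larger part of the RNA in G77S than in WT embryos. Their share of all expected counts was 4.80%, 5.48% and 4.75% in the WT libraries, in the order of their replicate numbers. It was 5.46% and 5.73% in KO and 7.70%, 7.36% and 6.96% in G77S, in the same order, which all lists of values below keep. Every G77S library lay above every WT and KO library, while KO replicate 1 fell inside the WT range. As means these were 5.01% ± 0.409 (SD, n = 3), 5.60% ± 0.195 (SD, n = 2) and 7.34% ± 0.369 (SD, n = 3). The G77S mean was 1.46 times and the KO mean 1.12 times that of WT. With mitochondrial counts left out, the shares were 4.97%, 5.71% and 4.95% in WT and 5.75% and 6.015% in KO. In G77S they were 8.04%, 7.62% and 7.20%. There both KO libraries lay above all WT libraries, KO replicate 1 narrowly, so its place depended on the counts included. A sum over the genes was given no test. Both subunits showed the same order of G77S over WT. The large subunit took 2.87%, 3.10% and 2.66% in WT, 3.21% and 3.21% in KO, and 4.32%, 4.19% and 3.89% in G77S. The small subunit took 1.93%, 2.38% and 2.08% in WT, 2.25% and 2.52% in KO, and 3.37%, 3.17% and 3.07% in G77S. On TPM, which is per transcript length, the share was 9.66%, 10.2% and 8.81% in WT, 10.05% and 9.66% in KO, and 13.6%, 13.5% and 12.8% in G77S. On that scale both KO libraries fell inside the WT range. The ratio of large to small subunit TPM was 1.14 ± 0.102 in WT (SD, n = 3), 1.13 ± 0.102 in KO (SD, n = 2) and 1.12 ± 0.0399 in G77S (SD, n = 3), differences smaller than the spread between libraries.

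**Figure D1:**
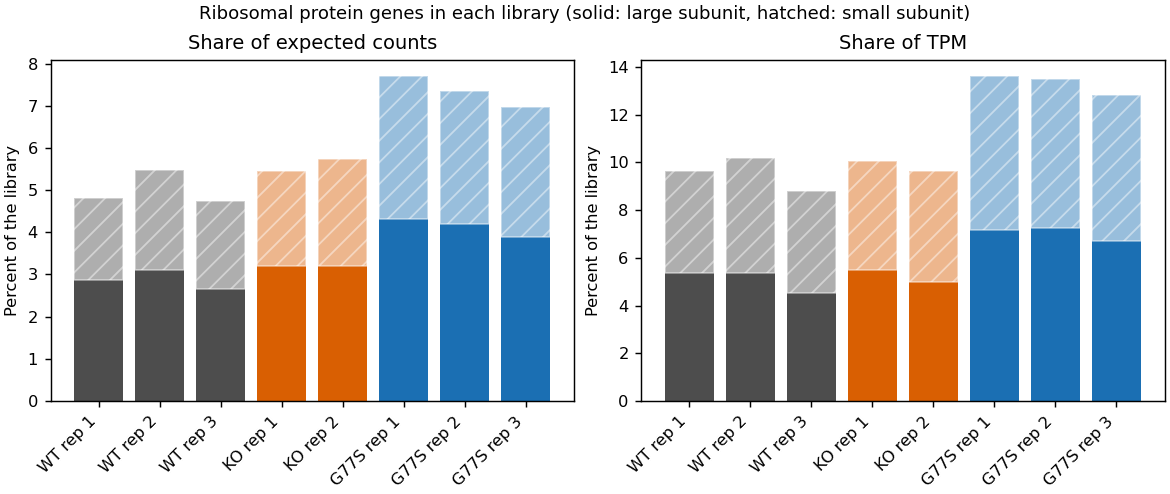
Share of each library taken by ribosomal protein genes, in percent of expected counts (left) and of TPM (right), with 1 bar a library, the large subunit solid and the small subunit hatched. The G77S bars reach 6.96% to 7.70% of counts, above the 4.75% to 5.73% of the others.

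Levels differed widely between genes, although most of the proteins are needed in equal number. Within a library the highest canonical gene stood 17.1 to 34.6 times above the lowest on TPM. In the large subunit the highest mean TPM over the 8 libraries belonged to Rpl41 (3578), the shortest ribosomal protein, and Rpl13 (2224) and Rpl35 (2202) were also among the 4 highest. The small subunit was led by the paralogue Rps27l (4753), then Rps29 (4009), a small zinc-binding protein, and Rps14 (3096). At the low end of the canonical small subunit genes were Rps12 (253) and Rpsa (207). By this mean the 4 lowest detected large subunit genes were paralogues, namely Rpl22l1 (200.3), Rpl39l (152), Rpl7l1 (109) and Rpl10l (56.2). The place of Rpl22l1 depended on the group. Its mean TPM was 335.6 in KO, above the canonical Rpl28 (229.6) and Rpl27a (217), and 168 in WT, below both (191 and 210.5).

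Against WT, G77S embryos had a positive log2 fold change in 77 of the 85 tested ribosomal protein genes, and 3 passed the test. Over all 13953 genes tested, 51.6% were positive, 1.3% were called higher and 2.09% lower. The called genes were Rps15a and Rpl21, both canonical, and the paralogue Rpl39l. No ribosomal protein gene was called lower by edgeR, 0 were lower at an unadjusted p under 0.05 (9.78% of all genes), and 0 were called lower by DESeq2 (6.12%) or by limma on log2(TPM + 1) (2.06%). At an unadjusted p under 0.05, 33 were higher, against 10.3% of all genes. The G77S libraries lay wholly above the WT libraries for 49 ribosomal protein genes and wholly below for 0, where 17.2% and 11.8% of all genes did so. The median log2 fold change was 0.41 for both the large and the small subunit, with quartiles of 0.22 and 0.59 for the large and 0.25 and 0.54 for the small, and 0.03 for all genes tested.

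The largest log2 fold change among the 85 genes was that of Rpl39l, the autosomal paralogue of Rpl39 known for its use in spermatogenesis. Rpl39l measured 67.3, 38.6 and 28.1 CPM in WT and 103, 248 and 208 CPM in G77S. The lowest G77S library was replicate 1, which still lay above the highest WT library, also replicate 1. The log2 fold change was 2.06 (SE 0.47, edgeR adjusted p = 0.0419). Its X-linked partner Rpl39, a short protein lining the exit tunnel of the large subunit, measured 146, 189 and 195 CPM in WT and 416, 315 and 316 CPM in G77S, again without overlap. It did not pass the test (log2 fold change 0.98, SE 0.24, edgeR adjusted p = 0.0514).

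Among canonical genes Rps15a, a protein of the small subunit body, measured 214, 274 and 291 CPM in WT and 527, 484 and 482 CPM in G77S. All 3 G77S libraries stood above all 3 WT libraries, with a log2 fold change of 0.94 (SE 0.20, edgeR adjusted p = 0.0345). Rpl21, of the large subunit, measured 564, 530 and 643 CPM in WT and 1064, 961 and 942 CPM in G77S. These did not overlap either, and the log2 fold change was 0.77 (SE 0.17, edgeR adjusted p = 0.0388). The next large subunit gene was Rpl26, with 400, 544 and 463 CPM in WT and 866, 824 and 742 CPM in G77S, which missed the threshold (log2 fold change 0.79, edgeR adjusted p = 0.0501). In the small subunit Rps24 and Rps10 were among the next, with log2 fold changes of 0.61 and 0.65 and edgeR adjusted p-values of 0.0826 and 0.0942. Both are known as genes of Diamond-Blackfan anaemia, an inherited failure of red cell production.

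Not all genes went with the majority. Rpl10, an X-linked gene whose protein joins the large subunit late, measured 2061, 1519 and 1181 CPM in WT and 1585, 1149 and 1047 CPM in G77S, ranges that overlap (log2 fold change -0.33, SE 0.24, edgeR adjusted p = 0.487). Rps20 measured 522, 949 and 630 CPM in WT and 585, 527 and 595 CPM in G77S, also overlapping (log2 fold change -0.30, edgeR adjusted p = 0.525). On log2 TPM its sign turned, to 0.53. Rpl7 stood at -0.13 and on log2 TPM at 0.37. Neither passed the test on either scale in this comparison. The stalk of the large subunit, which draws in elongation factors, was uneven in its values: Rplp2 had a log2 fold change of 0.64 (edgeR adjusted p = 0.0933), Rplp1 one of 0.15 and Rplp0, the stalk base, one of -0.09, and none passed. Rpsa, a small subunit protein also known as a laminin receptor, stood at 0.37 and did not pass.

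**Figure D2:**
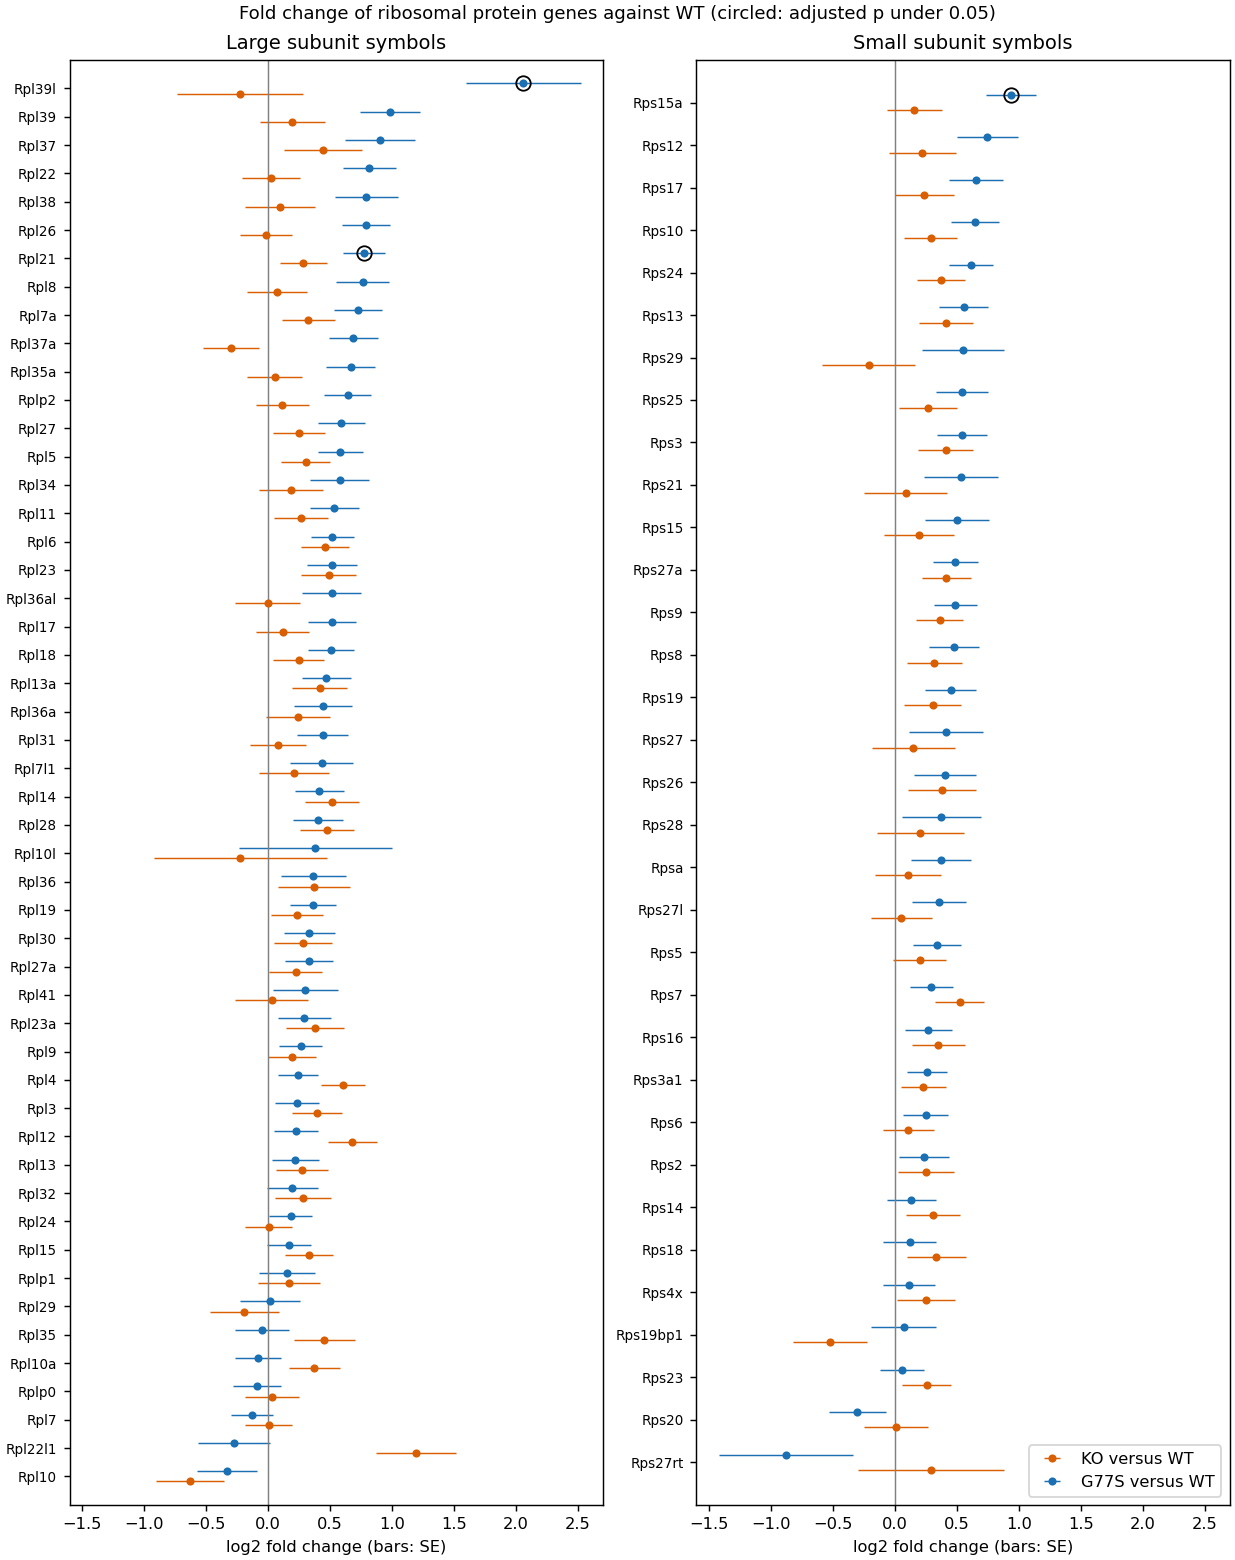
Log2 fold change (points) and its SE (bars) of 83 of the 85 tested ribosomal protein genes in KO (orange) and G77S (blue) against WT, large subunit symbols left and small subunit symbols right, sorted by the G77S value. Both comparisons share the WT libraries, and the 3 circled genes, Rpl39l, Rpl21 and Rps15a, passed an adjusted p of 0.05.

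How many ribosomal protein genes were called in G77S against WT depended on the libraries and the test. Leaving out any 1 of the G77S libraries, WT replicate 2 or WT replicate 3 left 0 calls, and without WT replicate 1 there were 3. The share of all genes called higher also fell, to 0.225%, 0.253% and 0.525% without G77S replicate 1, 2 or 3 and to 0.524% and 0.654% without WT replicate 2 or 3, and was 1.96% without WT replicate 1. Over the fits that each left out 1 of the 8 libraries, the log2 fold change was 0.82 to 1.03 for Rps15a, 0.71 to 0.86 for Rpl21 and 1.81 to 2.48 for Rpl39l. DESeq2 called 19 higher, against 5.29% of all genes it tested, limma on log2(TPM + 1) called 40, against 8.44%, and edgeR without a filter called 7, against 2.6%.

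The differences were also set against gene length and fragment length. Canonical ribosomal protein transcripts are short, with a median length of 675 bases against 1889 for all genes tested. The 29 canonical genes under 600 bases, a limit chosen after the values were seen, had a median log2 fold change of 0.53 in G77S against WT, and the 48 longer ones 0.35. For KO against WT the medians were 0.21 and 0.27. Across the 77 canonical genes, Spearman's rho between log2 fold change and length was -0.32 for G77S and 0.29 for KO, a description over genes that share the same libraries. The summed CPM of the shorter group divided by that of the longer was 0.335, 0.430 and 0.412 in WT, 0.343 and 0.433 in KO, and 0.437, 0.413 and 0.429 in G77S. WT replicate 1 and KO replicate 1, the libraries with the longest fragments, had the lowest ratios. The G77S ratios, from the shortest fragments, lay near those of WT replicates 2 and 3 and KO replicate 2. With each library's trend over length and GC content removed, the G77S medians were 0.14 for the large and 0.08 for the small subunit, against -0.08 for all genes, and 1 gene, Rps15a, passed (log2 fold change 0.71, edgeR adjusted p = 0.0286), where 1.4% of all genes were called higher. Rpl21 and Rpl39l then stood at log2 fold changes of 0.65 and 1.80 (edgeR adjusted p = 0.0527 and 0.0607). On log2(TPM + 1) the G77S medians were 0.59 for the large and 0.55 for the small subunit, against 0.23 for all genes. The part of fragment length in the G77S result was not tested.

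**Figure D3:**
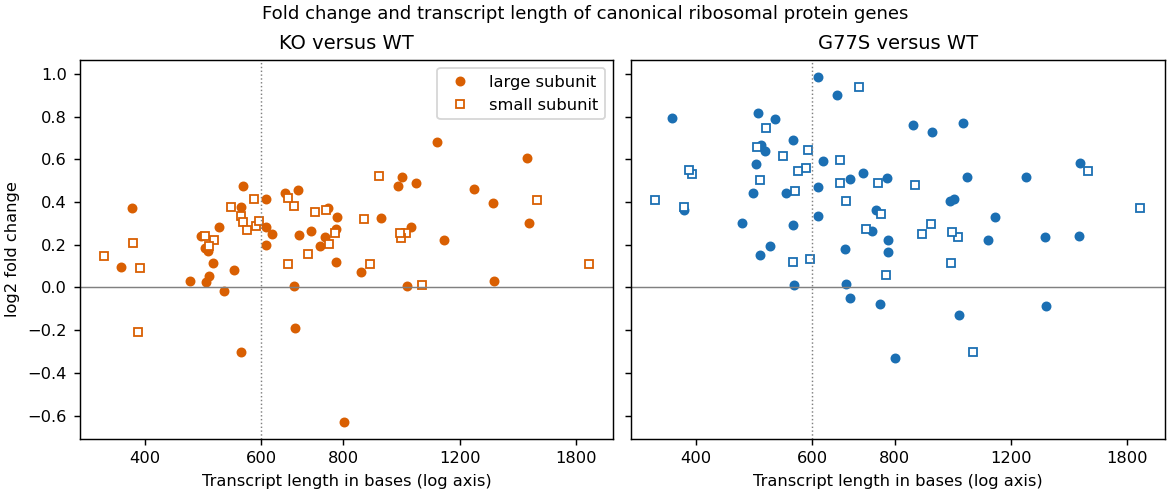
Log2 fold change of the 77 canonical genes against transcript length in bases (log axis), for KO (left) and G77S (right) against WT, with the dotted line at 600 bases. In G77S the points left of the line have a median of 0.53 and those right of it 0.35.

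**Figure D4:**
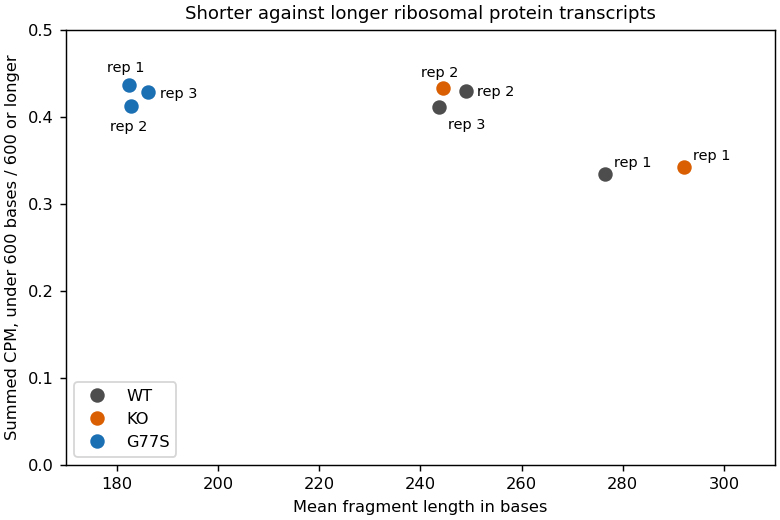
Summed CPM of canonical genes under 600 bases divided by that of longer ones, against the mean fragment length of each library in bases. The 3 G77S libraries lie at 182.4 to 186.1 bases, apart from the others, and WT replicate 1 and KO replicate 1 have the lowest ratios, 0.335 and 0.343.

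Single libraries also stood out within the groups. WT replicate 1 was the lowest of the 8 libraries in 51 of the 77 canonical genes, and G77S replicate 1 was the highest in 53. These are the libraries with next to no Y-linked RNA. With both left out, the median log2 fold change of G77S against WT was 0.28 for the large and 0.20 for the small subunit (all genes 0.07). There 67 genes were positive, and 1 gene passed, Rpl39l (2.77, edgeR adjusted p = 0.0263), where 0.765% of all genes were called higher. The members on the X chromosome are Rpl10, Rpl36a, Rpl39 and Rps4x, of which Rpl36a encodes a zinc-binding protein of the large subunit and Rps4x a small subunit protein. In G77S replicate 1 Rps4x stood at 1200 CPM, against 784 and 792 in the other G77S libraries, and Rpl36a at 388 against 275 and 301. In WT replicate 1 Rps4x stood at 954 CPM against 817 and 794, but Rpl36a at 197 against 269 and 243.

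Against WT, KO embryos had a positive log2 fold change in 76 of 85 ribosomal protein genes, and none passed the test. Of all genes tested, 46.5% were positive, 0.0788% were called higher and 0.043% lower. By edgeR 0 ribosomal protein genes were called in either direction, with 6 higher and 1 lower at an unadjusted p under 0.05 (6.24% and 6.8% of all genes). DESeq2 called 3 higher and 0 lower, against 2.26% and 2.56% of all genes, limma on log2(TPM + 1) called 0 (0.409% and 0.272%), and edgeR without a filter called 1 higher, against 1.24%, and 0 lower, against 1.14%. The median log2 fold change was 0.24 for the large and 0.25 for the small subunit, against -0.06 for all genes. Without WT replicate 1 both medians were 0.15 (all genes -0.0036), without KO replicate 2 they were 0.19 and 0.16 (all genes -0.17), and with the trend over length and GC content removed they were 0.14 and 0.17 (all genes -0.03). The KO libraries lay wholly above WT for 29 ribosomal protein genes and wholly below for 2, where 13.1% and 12.5% of all genes did so. On log2(TPM + 1) the medians were 0.07 and 0.08, against -0.12 for all genes.

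The 3 genes that DESeq2 called were Rpl22l1, Rpl12 and Rpl4. Rpl22l1, the paralogue of the RNA-binding large subunit protein Rpl22, measured 66.7, 43.9 and 74.5 CPM in WT and 114 and 168 CPM in KO (log2 fold change 1.19, SE 0.32, edgeR adjusted p = 0.168). Rpl12, at the base of the stalk, measured 352, 384 and 346 CPM in WT and 512 and 643 CPM in KO (log2 fold change 0.68, SE 0.20, edgeR adjusted p = 0.191). Rpl4, whose long loop lines the exit tunnel, measured 1733, 1783 and 1643 CPM in WT and 2834 and 2396 CPM in KO (log2 fold change 0.60, SE 0.18, edgeR adjusted p = 0.193). In all 3 genes both KO libraries lay above all WT libraries. The small subunit gene with the smallest p was Rps7, with 669.5, 756 and 658 CPM in WT and 1093 and 903 CPM in KO (log2 fold change 0.52, edgeR adjusted p = 0.293). Rps27a, made as a fusion with ubiquitin, Rps24 and Rps13 followed with log2 fold changes of 0.42, 0.37 and 0.41.

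In KO 9 of the 85 genes had a negative log2 fold change. Rpl10 measured 1080 and 974 CPM in KO, below its 3 WT libraries, the highest of which was the WT replicate 1 value of 2061 (log2 fold change -0.63, SE 0.27, edgeR adjusted p = 0.365). Rps19bp1 measured 62.2, 87.9 and 66.3 CPM in WT and 46.4 and 54.1 CPM in KO, also without overlap (log2 fold change -0.52, edgeR adjusted p = 0.495). Rpl37a stood at -0.30 and Rps29 at -0.21, both with overlapping libraries. The stalk genes Rplp0, Rplp1 and Rplp2 stood at 0.03, 0.17 and 0.12, and Rpsa at 0.11.

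Set against KO, G77S embryos had 2 ribosomal protein genes called higher, Rpl39l and Rpl37a, and 1 called lower, Rpl22l1. Of all genes tested, 1.76% were called higher and 2.43% lower. A positive log2 fold change was found in 59 of 85 ribosomal protein genes (53.7% of all genes), with medians of 0.20 for the large and 0.14 for the small subunit against 0.10 for all genes. Without G77S replicate 1 these medians were 0.08 and 0.03 (all genes 0.04), without KO replicate 1 they were 0.11 and 0.03 (all genes 0.18), and without KO replicate 2 they were 0.23 and 0.28 (all genes 0.21). With the trend over length and GC content removed they were 0.01 for the large and -0.04 for the small subunit (all genes -0.07), so the small subunit value changed sign. At an unadjusted p under 0.05, 12 were higher and 3 lower (11.0% and 9.74% of all genes). The G77S libraries lay wholly above KO for 29 and wholly below for 12 (24.9% and 20.0% of all genes). DESeq2 called 5 higher and 1 lower (6.45% of all genes each way), limma on log2(TPM + 1) called 24 and 2 (11.1% and 2.19%), and edgeR without a filter 2 and 1 (2.7% and 3.45%). The comparison uses the same G77S and KO libraries as those against WT. Rpl37a, a zinc-binding protein of the large subunit, measured 213 and 295 CPM in KO and 563, 464 and 489 CPM in G77S (log2 fold change 0.99, SE 0.23, edgeR adjusted p = 0.0400). Rpl39l measured 20.7 and 55.6 CPM in KO, below all G77S libraries (log2 fold change 2.29, SE 0.55, edgeR adjusted p = 0.0455). Rpl22l1 measured 42.0, 64.7 and 46.5 CPM in G77S, below both KO libraries (log2 fold change -1.47, SE 0.32, edgeR adjusted p = 0.0318). Leaving out any 1 KO or G77S library left 0 calls in both directions, where 0.376% to 0.669% of all genes were called higher and 0.658% to 1.09% lower. Over the fits that each left out 1 of the 8 libraries, the log2 fold change was 0.77 to 1.24 for Rpl37a, 1.74 to 3.17 for Rpl39l and -1.72 to -1.16 for Rpl22l1. Without WT replicate 2 or WT replicate 3 there was 1 called higher, against 1.51% and 1.78% of all genes. Without WT replicate 1 there were 4, against 3.13%. Rpl22l1 stayed called lower in each of these fits (edgeR adjusted p = 0.0314, 0.0384 and 0.0268 in the order given). Of all genes, 2.11%, 2.34% and 3.95% were called lower there.

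The balance of paralogue and partner, set side by side on TPM, set 1 group apart from both others in the Rpl22 and the Rpl7 pair. Rpl22l1 stood at 0.402, 0.265 and 0.588 of Rpl22 in WT, 0.856 and 1.10 in KO, and 0.149, 0.284 and 0.200 in G77S. Both KO libraries lay above all the others, while the G77S and WT ranges overlapped. Rpl22 itself measured 138, 131 and 102 CPM in WT, 114 and 137 in KO, and 248, 202 and 203 in G77S, with a log2 fold change against WT of 0.02 in KO and 0.82 in G77S (edgeR adjusted p = 0.991 and 0.0642). Rpl7l1, known to be part of early large subunit precursors, stood at 0.0291 to 0.0761 of Rpl7 in WT, 0.0564 and 0.0645 in KO, and 0.0899 to 0.111 in G77S, where all libraries lay above the rest. On CPM the 2 genes differed less between groups. Rpl7l1 measured 120.6, 242.8 and 221.2 in WT, 214.2 and 236.5 in KO, and 243.9, 267.8 and 276.8 in G77S. Its log2 fold change of G77S against WT was 0.43 (edgeR adjusted p = 0.384). Rpl7 measured 1568, 1348 and 1210 CPM in WT, 1327 and 1436 in KO, and 1291, 1239 and 1240 in G77S. The ratios were given no test.

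In the other pairs the groups overlapped or lay close, or the counting could not separate the genes. Rpl39l stood at 0.298, 0.135 and 0.0965 of Rpl39 in WT, 0.0828 and 0.150 in KO, and 0.172, 0.550 and 0.457 in G77S, where G77S replicate 1 fell inside the WT range. Rps27l exceeded Rps27, a zinc-binding small subunit protein, in all 8 libraries, by 2.29 to 3.06 times in WT, 2.10 and 2.28 times in KO and 2.58 to 3.15 times in G77S. Both KO libraries were the lowest in this pair, the higher at 2.279 beside 2.286 in WT replicate 3. Rpl36al, a retrocopy of Rpl36a, exceeded its X-linked parent in all 8, by 1.29 to 1.63 times in WT, 1.28 and 1.29 times in KO and 1.34 to 2.01 times in G77S. Here too both KO libraries were the lowest, the higher at 1.286 beside 1.295 in WT replicate 1. Rpl10l, a retrocopy of Rpl10 known for male meiosis, stood at 0.00532 to 0.0683 of Rpl10, and its levels varied within groups, from 11.3 to 88.6 CPM in WT and from 35.9 to 107 CPM in G77S. Rps27rt shares a run of 341 identical bases with Rps27, so the counting may have moved reads between them, and its values of 4.08 to 14.0 CPM, and its ratio to Rps27 of 0.0110 to 0.0125 in G77S and 0.0237 to 0.0346 elsewhere, are uncertain. The other copies share runs of at most 38 bases with their partners. The annotation also holds 298 pseudogenes of 60 of these genes marked -ps, which took 0.0221% to 0.0599% of the counts of a library. Pseudogenes under other symbols are not in that figure. All annotated pseudogenes, of any parent gene, took 1.87% to 2.34% in WT, 2.92% and 3.11% in KO, and 1.88% to 2.40% in G77S. How much of this came from ribosomal protein sequences was not tested.

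**Figure D5:**
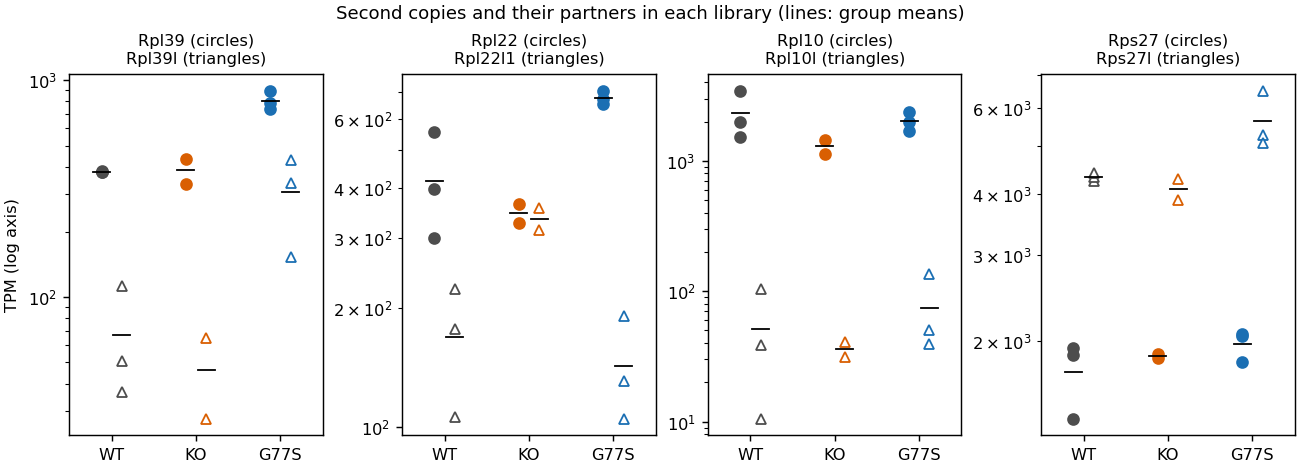
TPM on log axes of 4 canonical genes (filled circles) and their paralogues or retrocopies (open triangles) in each library, with lines at the group means. Rps27l lies above Rps27 in every library, and the Rpl22l1 triangle lies below the Rpl22 circle of the same library in every library except KO replicate 2.

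The rest of the pathway was read from lists of genes that serve the ribosome. Of 3 ribosome components with other symbols, among them Fau, made as a fusion with a ubiquitin-like protein, and Rack1, a signalling scaffold on the small subunit, none passed the edgeR test in any comparison. Rack1 measured 455, 623 and 502 CPM in WT, 746 and 721 in KO, and 873, 939 and 722 in G77S, with all KO and G77S libraries above WT (log2 fold change 0.48 and 0.68, edgeR adjusted p = 0.377 and 0.0796). It was past an unadjusted p of 0.05 in both, and DESeq2 called 1 of the 3 genes, higher, in G77S (5.29% of all genes) and 0 in KO (2.26%).

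Of 56 ribosome biogenesis factors, 0 passed the edgeR test in KO against WT (median log2 fold change 0.20). There 11 were higher and 1 lower at an unadjusted p under 0.05 (6.24% and 6.8% of all genes), DESeq2 called 1 higher and 0 lower (2.26% and 2.56%), and limma on log2(TPM + 1) called 0 (0.409% and 0.272%). In G77S against WT 2 rose and 0 fell by edgeR (median 0.29), where 1.3% and 2.09% of all genes did so. At an unadjusted p under 0.05, 7 were higher and 3 lower (10.3% and 9.78%), DESeq2 called 4 higher and 1 lower (5.29% and 6.12%), and limma called 11 higher and 0 lower (8.44% and 2.06%). The edgeR calls were Bysl, which acts in small subunit maturation (10.8, 14.1 and 10.8 CPM in WT, 54.1, 50.3 and 50.4 in G77S, log2 fold change 2.12, SE 0.40, edgeR adjusted p = 0.0189), and Mrto4, a placeholder for Rplp0 in large subunit precursors (77.7, 73.8 and 67.7 CPM in WT, 165, 165 and 118 in G77S, log2 fold change 1.03, SE 0.23, edgeR adjusted p = 0.0396). In G77S against KO edgeR called 2 lower and 0 higher (2.43% and 1.76% of all genes). The direction depended on the scale, since limma on log2(TPM + 1) called 9 higher and 0 lower (11.1% and 2.19%), while DESeq2 called 2 higher and 4 lower (6.45% each way), and 6 were higher and 7 lower at an unadjusted p under 0.05 (11.0% and 9.74%). The edgeR calls were Wdr12, a large subunit assembly factor (log2 fold change -1.42, edgeR adjusted p = 0.0164), and Nmd3, the export adaptor of the large subunit (-1.21, edgeR adjusted p = 0.0361).

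Of 20 genes of RNA polymerase I and its factors, which make ribosomal RNA, 0 passed the edgeR test against WT in either group. At an unadjusted p under 0.05, 1 was higher and 2 lower in KO and 2 higher and 1 lower in G77S, and DESeq2 called 0 in KO and 1, higher, in G77S. Of all genes, 6.24% were higher and 6.8% lower at that p in KO and 10.3% and 9.78% in G77S, and DESeq2 called 2.26% and 2.56% in KO and 5.29% and 6.12% in G77S, shares that also stand behind the next 2 lists. The shared polymerase subunit Polr2l rose in G77S against KO (log2 fold change 1.36, edgeR adjusted p = 0.0485). Of all genes, edgeR called 1.76% higher in that comparison. Of 16 other genes of the TOP mRNA class, such as elongation factors, 0 passed the edgeR test in KO, where 2 were higher at an unadjusted p under 0.05 and DESeq2 called 0, and 1 rose in G77S, where 6 were higher and 0 lower at that p and DESeq2 called 2 higher. The edgeR call was Hnrnpa1, an RNA-binding protein (log2 fold change 1.01 against WT and 1.16 against KO, edgeR adjusted p = 0.0432 and 0.0373). By edgeR 1.3% and 1.76% of all genes were called higher in these 2 comparisons. The medians of this class were 0.10 in KO and 0.18 in G77S against WT. Of 15 regulators, among them Mtor, Larp1, Myc and Trp53, 0 passed the edgeR test in any comparison. Against WT, 2 were higher and 2 lower at an unadjusted p under 0.05 in KO and 3 higher and 3 lower in G77S, and DESeq2 called 2 higher and 1 lower in each. In G77S against WT limma on log2(TPM + 1) called 4 genes higher and 0 lower in each of these 3 lists, against 8.44% and 2.06% of all genes. In KO against WT limma called 1 of the 15 regulators lower and 0 higher, and 0 genes of the other 2 lists. Of all genes it called 0.272% lower and 0.409% higher there.

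Markers of the blastocyst lineages differed between the genotypes as well. Of 12 trophectoderm markers, 4 were called lower by edgeR in G77S against WT (Gata2, Elf5, Krt7 and Krt18), where 2.09% of all genes were. At an unadjusted p under 0.05, 7 were lower there, against 9.78% of all genes. In KO 0 were called by edgeR, 3 were lower at an unadjusted p under 0.05 (6.8% of all genes) and 2 by DESeq2 (2.56%). Against WT, 10 of the 12 were negative in each group, with medians of -0.84 in KO and -0.79 in G77S. Their summed level was 7427 to 11350 CPM in WT, 7851 to 12910 in KO and 3968 to 4820 in G77S, of which the keratins Krt8 and Krt18 made up 93.9% to 98.3%. The other 10 summed to 291.5 to 454 CPM in WT, 131 to 245 in KO and 242 to 267 in G77S, below WT in both groups.

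Of 11 epiblast markers 1 was called higher by edgeR in G77S (Pou5f1) and 0 lower (1.3% and 2.09% of all genes), with 9 of 11 positive (51.6%). At an unadjusted p under 0.05, 6 were higher and 2 lower in G77S (10.3% and 9.78% of all genes). In KO 5 were higher and 1 lower at that p (6.24% and 6.8%). Sox2 and Esrrb, at 0 in WT, were among the genes higher at that p in both groups, with at most 2.12 CPM. Nanog was lower at that p in both groups. It measured 297, 266 and 221 CPM in WT, 53.4 and 27.4 in KO, and 115, 66.85 and 176 in G77S. Its log2 fold change against WT was -2.695 in KO and -1.13 in G77S (edgeR adjusted p = 0.053 and 0.107). DESeq2 called 3 higher and 2 lower in G77S (5.29% and 6.12%) and 1 each way in KO (2.26% and 2.56%). By edgeR 0 of the 11 markers were called in KO. Their summed level was 7832 to 14540 CPM in WT, 10960 to 12670 in KO and 4650 to 7130 in G77S, of which Dppa5a alone made up 90.7% to 97.3%. The other 10 summed to 394 to 429 CPM in WT, 396.5 to 472 in KO and 431 to 582 in G77S, so the sum was lower in G77S with Dppa5a and not lower without it. Of 9 tested primitive endoderm markers 1 was called higher by edgeR in G77S (Col4a1), where 1.3% of all genes were. There 5 were higher at an unadjusted p under 0.05 (10.3% of all genes) and 3 by DESeq2 (5.29%). In KO 0 were called by edgeR, 8 were higher at an unadjusted p under 0.05 (6.24% of all genes) and 5 by DESeq2 (2.26%). Several of these genes stood at or near 0 in WT. Col4a1 measured 0.279, 0 and 0 CPM in WT and 5.88, 3.54 and 1.48 in G77S. Sox17 and Sox7 were at 0 in WT and at 0.472 to 2.23 CPM in KO. All 11 listed markers summed to 37.8 to 67.4 CPM in WT, 173 to 316 in KO and 67.1 to 147 in G77S. Within these sums Sparc alone stood at 24.9, 5.76 and 39.9 CPM in WT, 216 and 86.05 in KO, and 95.5, 26.2 and 37.6 in G77S. In such bulk RNA, fewer cells of a lineage and less RNA per cell cannot be told apart. The part of these markers in the ribosomal protein values was not tested.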

How the data were processed

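Each of the 8 libraries came as an RSEM gene table. Per the file headers, the authors deposited expected counts (estimated counts, with reads that match several genes split between them), TPM and FPKM, each scaled or estimated within 1 library. Per the submitters' processing notes, the tools were RSEM 1.3.1, STAR 2.6.1c, DESeq2 1.42.1 and Trim Galore 0.4.5, on mm10 (GRCm38). FPKM was not used. GENCODE M21 gave a symbol to 55230 of 55471 gene identifiers (99.6%). The fragment length was read from the deposited length minus the effective length of genes longer than 2000 bases.

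Expected counts were rounded and tested with edgeR 4.0.16 in R 4.3.3, with TMM scaling, filterByExpr (13953 genes kept), and a quasi-likelihood F test in 1 model of the 8 libraries by genotype. Calls had an adjusted p under 0.05 (Benjamini-Hochberg, over all genes). The SE is the log2 fold change divided by the square root of F. CPM are TMM-scaled. The steps were tested on simulated data. Alternatives used DESeq2 1.42.0 and limma 3.58.1 (log2 of TPM plus 1 or 0.1), RLE scaling, other filters, the trend over length and GC content (loess), named pseudogenes added, TMM without the members, single libraries left out and the replicate number as a block. The fit without the 2 libraries that lack Y-linked RNA was chosen after seeing the data. Reads carry no molecular identifiers, so the upper limit for 0 counts (3 counts) covers counting error only.

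The ribosomal protein genes and the gene lists were chosen with earlier results of these data known. Named are the called genes, up to 4 genes with the smallest p per comparison, subunit and direction, the 4 highest and lowest by TPM, paralogue copies, stalk genes and Rpsa, and called genes of the lists. Rpl36a, Rps4x, Rpl22, Rpl27a, Rpl28, Rack1 and Fau, regulators named without values, and the uncalled lineage markers were named after their values were seen. Values of some single genes are not reported here.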

Additional observations from a re-analysis of the deposited data

How the results depend on the processing

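Ribosomal protein genes called higher in KO against WT numbered 3 by DESeq2 and 1 without a filter, and 0 under the other alternatives. In G77S against WT the count, with the share of all genes called higher in brackets, was 8 (3.75%) with the stricter filter of 5 CPM in 2 libraries, 19 (5.29%) by DESeq2, 1 (1.4%) without the length and GC trend, 40 (8.44% and 7.38%) by limma on log2 TPM with a pseudocount of 1 or 0.1, 7 (2.6%) without a filter, 5 (2.76%) with only the 2 groups compared and 1 (0.765%) when both libraries without Y-linked RNA were left out (6 libraries). In G77S against KO it was 5 (6.45%) by DESeq2, 24 (11.1% and 10.5%) by limma and 1 (1.16%) in the 6 libraries, and the count called lower was 3 (3.65%) without the trend, 2 (2.19% and 1.97%) by limma and 0 (2.52%) in the 6 libraries. Leaving out 1 library gave 0 to 4 called higher in G77S against WT, 0 to 4 higher and 0 to 1 lower in G77S against KO. Numbers did not pair the samples (correlations of deviations between same-numbered libraries -0.02 to 0.07), and the replicate block gave 1 called higher in each G77S comparison (1.1% of all genes against WT, 1.8% against KO). The cause of these shifts was not tested.

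The large subunit median of KO against WT was 0.0664 and 0.0665 on log2 TPM (pseudocounts 1 and 0.1). For G77S against WT the large subunit median was 0.14 without the trend and 0.59 by limma, and the small subunit median 0.08475 without the trend and 0.20 in the 6 libraries. For G77S against KO the large subunit median was 0.0120 without the trend and 0.56 by limma, and the small subunit median -0.0386, a change of sign, and 0.46. Over all genes the G77S median was 0.03 and reached 0.41 by limma with a pseudocount of 0.1. Single genes that changed sign in KO against WT were Rpl29 (-0.72 to 0.20 with 1 library left out), Rpl39l (0.22 in the 6 libraries, -1.11 to 0.32 with 1 left out) and Rps29 (-0.77 to 0.19 with 1 left out). The others were Rpl7 (0.37), Rplp0 (0.16, and -0.28 to 0.0480 with 1 left out) and Rps20 (0.53) in G77S against WT, and Rpl12 (0.32), Rps20 (0.80), Rps7 (0.40) and Rps23 (0.27) in G77S against KO, on log2 TPM where no library is named. The ratio of the share of counts to WT stayed between 1.39 and 1.54 for G77S and between 1.03 and 1.17 for KO over the alternatives run.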
